A study of Mus musculus with 6 samples.

Results

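Foxj1, Rfx1, Rfx2, Rfx3, Rfx4, Sox30, Crem, Tbpl1, Taf7l and Klf4 are 10 of the 45777 genes in a table of mouse testis RNA-seq values. They are regulators of transcription known for the genes of motile cilia or of haploid germ cells. The genes were matched by symbol, and every one of the 10 had a row. Wild-type mice received a daily 10 ml of LDC liquid diet with ethanol or of the control diet for 16 weeks, after 5 days of acclimatisation to the control diet, and testis was sequenced in 3 libraries per diet. The labels give no strain or age, and do not say whether the libraries of a diet come from separate animals, so that the spread between them may be technical. The set was chosen with earlier results of this ethanol and control comparison known, so its members were in effect selected on the read counts and TPM of these libraries. Their values are given as a description and support nothing by themselves.

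The axoneme of the sperm tail is built from the same dynein arms, radial spokes and tubulin-binding proteins as that of a motile cilium. FOXJ1, a forkhead protein, and the RFX proteins, a winged-helix family that binds the X-box, switch on these genes in ciliated epithelia, and RFX2 is also needed in mouse for spermatids to form a flagellum. In the germ line the activator form of CREM, the HMG-box protein SOX30, the TBP-like protein TBPL1 and the TFIID subunit TAF7L act on genes of meiotic and haploid cells. KLF4, a zinc-finger protein best known from stem cells, is made in mouse testis by postmeiotic germ cells and Sertoli cells.

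Promoters of regulators that hold a half-site of the X-box, the element that RFX proteins bind, are shown first. The RefSeq promoter table of build GRCm38.p6, with 250 bases before and 50 after each start, held 8 of the 10 regulators, with no entry for Foxj1 and Crem. The half-site GTTGCC, searched on both strands, was in the promoters of 4 of these 8 genes, Rfx1, Rfx2, Rfx3 and Klf4, and in 12.5% of all 32851 promoters. Stretches of 60 bases around it follow, read 5′ to 3′ on the strand of the gene, with the half-site in capitals.
Rfx1: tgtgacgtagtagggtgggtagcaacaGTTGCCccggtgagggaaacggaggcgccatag
Rfx2: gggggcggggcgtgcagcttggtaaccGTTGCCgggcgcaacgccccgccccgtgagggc
Rfx3: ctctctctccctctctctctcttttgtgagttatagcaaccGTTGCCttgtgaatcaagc
Klf4: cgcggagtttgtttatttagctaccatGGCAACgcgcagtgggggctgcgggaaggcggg

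The Rfx1 stretch lies at chr8:84066810-84066869 on the plus strand. The others lie on the minus strand, that of Rfx2 at chr17:56831092-56831151, that of Rfx3 at chr19:28011117-28011176 and that of Klf4 at chr4:55532592-55532651. In Klf4 the half-site is on the opposite strand and is printed as its reverse complement. In the stretches of Rfx1 and Rfx3 the half-site is the second arm of an inverted repeat, GCAACNGTTGC, which was searched after the stretches had been seen. It was in the promoters of 2 regulators, Rfx1 and Rfx3, and in 14 of all 32851 promoters.

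Other elements of these factors' families were searched in the same windows, on both strands. The CRE half-site TGACG was in the promoters of Klf4, Rfx1, Rfx2 and Rfx4 and in 20.8% of all promoters. The full CRE TGACGTCA, the site of CREM and CREB1, holds that half-site on both strands and was in 0 of the 8 promoters and 1.79% of all. The forkhead core GTAAACA was in 0 of 8 and 3.65% of all, and the KLF box GGGTGTG in 0 of 8 and 7.95% of all. The SOX core ACAATGG was in the Rfx4 promoter and in 3.66% of all promoters. TATAAA was in the promoter of Taf7l, as overlapping matches on opposite strands, and in 13.6% of all promoters. A match here is a run of letters and not a measured binding site.

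All 10 regulators were expressed in testis. Levels are compared between genes in the authors' TPM, which is scaled to transcript length. Tbpl1, with 178.8 ± 11.2 TPM in control libraries (SD, n = 3), and Crem, with 169.0 ± 3.39, stood at the top, and their ranges over the control libraries overlapped. Rfx2 followed with 89.3 ± 14.2 TPM. Foxj1, with 60.7 ± 1.97, and Klf4, with 57.7 ± 4.07, overlapped in range, and so did Rfx4, with 41.8 ± 3.73, and Taf7l, with 41.1 ± 1.29. Below them, each with a range apart from its neighbours, were Sox30 with 24.7 ± 4.18 TPM, Rfx1 with 15.6 ± 3.01 and Rfx3 with 9.06 ± 0.61. The highest level was 19.7 times the lowest, and the members lay between percentiles 59.6 and 96.0 of the 25073 genes tested. Read counts of Foxj1 and the other members cannot tell fewer cells of a type from less RNA per cell, since a whole tissue was sequenced.

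**Figure D1:**
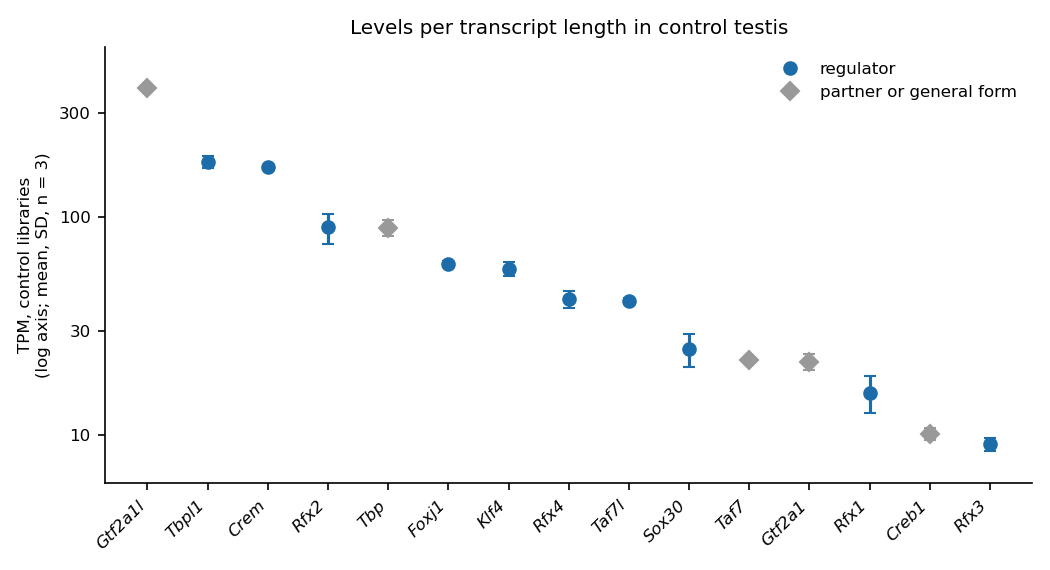
Mean TPM of the 10 regulators and of their partner or general forms in the control libraries, on a log axis, with SD as bars. Genes are ordered by the control mean, and the partner gene Gtf2a1l is highest with 387.9 TPM. Among the regulators, Tbpl1 and Crem are highest with control means of 178.8 and 169.0 TPM and Rfx3 is lowest with 9.06.

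Within their families several members held the highest level per length in this tissue. Family orders were looked at after the values were seen. Foxj1 had the highest mean control TPM of 44 forkhead genes, ahead of Foxk2 with 34.6 ± 1.97 TPM, and Klf4 that of 17 KLF genes, ahead of Klf17 with 26.8 ± 0.35. Rfx2 was the highest of 8 RFX genes, with a range that overlapped that of Rfx8, at 88.1 ± 11.5 TPM. Sox30 was in place 2 of 19 SOX genes, below Sox5 at 77.2 ± 17.9 TPM.

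Ratios of TPM within a library set the germ cell forms beside their general forms. Tbpl1 stood at 2.01 ± 0.057 times Tbp, the TATA-binding protein gene, in control libraries, and at 1.85 ± 0.096 times in ethanol libraries (SD, n = 3 each), with overlapping ranges. Taf7l stood at 1.86 ± 0.029 times Taf7, its general form, in control libraries and at 2.02 ± 0.14 times with ethanol. That ratio was 1.87, 1.88 and 1.83 in control libraries 1 to 3 and 2.18, 1.93 and 1.95 in ethanol libraries 1 to 3, so the diets did not overlap. Crem was far above Creb1, the general CRE-binding factor, at 16.8 ± 0.75 times with the control diet and 15.5 ± 1.09 times with ethanol. Gtf2a1l, the germ cell form of a TFIIA subunit that TBPL1 can bind, was at 19.1, 16.4 and 18.6 times Gtf2a1 in control libraries 1 to 3 and at a mean of 17.1 ± 0.62 times with ethanol. Rfx2 was at 5.76 ± 0.47 times Rfx1 and 9.82 ± 0.92 times Rfx3 in control libraries, and with ethanol at 5.58, 6.10 and 6.31 times Rfx1 and 9.16 ± 0.97 times Rfx3. Gene-level reads do not separate the activator form of CREM from its repressor forms.

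Differences between the diets were measured on read counts with edgeR's quasi-likelihood test and Benjamini-Hochberg adjustment over the 25073 genes tested. CPM, the read count per library scaled to a common total, used TMM factors. At an adjusted p of 0.05 the test called 0 of the 10 regulators and 0% of all genes, where 3343 genes had an unadjusted p under 0.05 and DESeq2 called 191 genes higher and 166 lower. The lowest adjusted p of any gene was 0.0515 and of any member 0.127, that of Foxj1. At an unadjusted p under 0.05, 3 members were lower with ethanol, against 5.89% of all genes, and 0 were higher, against 7.45%. The log2 fold change, ethanol over control, was below 0 in 9 of the 10 members and in 48.5% of all genes. The diets did not overlap in CPM, with ethanol lower, in 5 members and in 9.01% of all genes. Since the same contrast chose the members, nothing is read from these counts. The median log2 fold change was -0.11 over the members and 0.0065 over all genes tested.

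Foxj1 (Gene ID 15223, chr11:116330704-116335499 in mm10) had the largest difference of the 10. Its CPM was 83.2, 79.2 and 92.1 in control libraries 1 to 3 and 61.7, 56.1 and 67.7 in ethanol libraries 1 to 3. Every ethanol library was below every control library. The means were 84.8 ± 6.61 and 61.9 ± 5.79 CPM (SD, n = 3 each), a difference of -27.1% with ethanol. The log2 fold change was -0.46 (SE 0.08), with an adjusted p of 0.127 in edgeR's quasi-likelihood test, and Foxj1 had rank 28 of all genes by p. DESeq2, in which 1.23% of the genes with an adjusted p were called lower, gave it an adjusted p of 0.000599.

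Per length, Foxj1 had 58.9, 60.5 and 62.8 TPM in the control libraries and 48.4, 41.9 and 47.4 TPM in the ethanol libraries, again without overlap. The mean TPM differed by -24.4% and log2(TPM + 1) by -0.40 (SE 0.07). Foxj1 was the only member whose diets did not overlap, with ethanol lower, on both scales. No other gene of the annotation overlapped its locus.

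**Figure D2:**
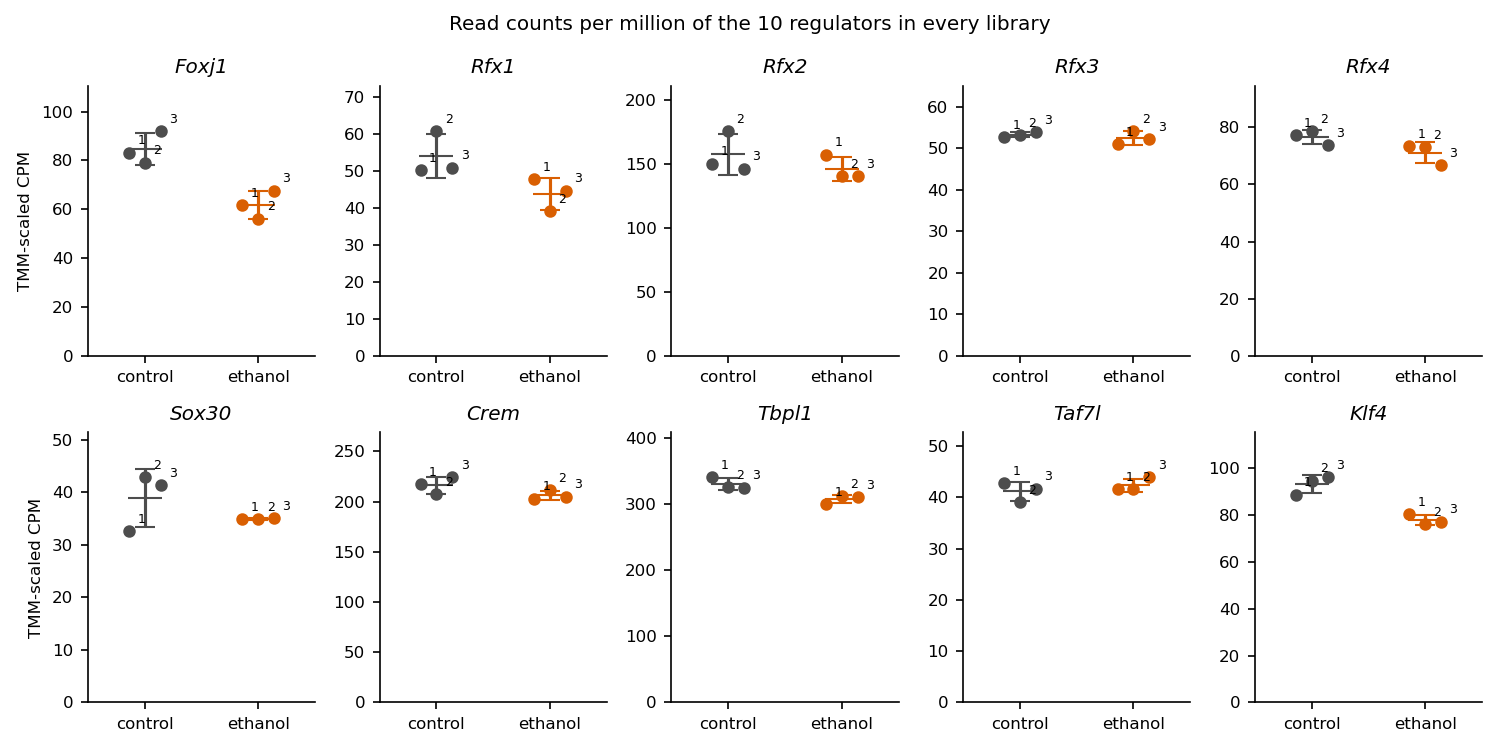
TMM-scaled CPM of each regulator in the 3 control (grey) and 3 ethanol (orange) libraries, numbered by library, with mean and SD as bars and each axis starting at 0. Foxj1 and Klf4 show a gap between the diets, and the values of Rfx3 and Taf7l overlap.

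Among the 4 RFX genes the values differed from gene to gene. Rfx1 (chr8:84063564-84097001) had 50.3, 60.8 and 50.8 CPM in control-diet libraries and 47.7, 39.0 and 44.7 in the ethanol libraries. The ethanol values lay below the control values, with means of 54.0 ± 5.92 and 43.8 ± 4.40 CPM. The fitted log2 difference was -0.30 (SE 0.10, adjusted p = 0.223 by edgeR's quasi-likelihood test). Per length, Rfx1 had 13.3, 19.0 and 14.5 TPM in the control and 17.4, 13.6 and 12.3 in the ethanol libraries, which overlapped, and a difference of -0.10 (SE 0.16) in log2(TPM + 1). The transcript length implied by the deposited counts and FPKM ranged from 6250 to 7778 bases over the 6 libraries for Rfx1, a ratio of 1.24, where that ratio was 1.01 to 1.06 for the other members. Rfx1 also holds the microRNA gene Mir709, whose reads cannot be set apart with the strand setting of the counting unknown.

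Rfx2 (chr17:56775897-56831008), the RFX gene tied to spermatid flagella in mouse, had 149.9, 175.5 and 146.1 CPM with the control diet and 156.9, 140.4 and 140.0 with ethanol. Control library 2 stood above the others, and the diets overlapped. The log2 fold change was -0.11 (SE 0.08) by edgeR's quasi-likelihood test, with an adjusted p of 0.600, and was -0.02 without control library 2 and -0.17 without ethanol library 1. Rfx3 (chr19:27761721-28014669), an RFX gene of ciliated cells in many tissues, had 52.7, 53.1 and 53.9 CPM with the control diet and 51.0, 54.2 and 52.1 with ethanol. On the count scale it had the smallest log2 fold change of the 10, -0.02 (SE 0.06). In log2(TPM + 1) its difference was 0.05 (SE 0.10), and Crem, Rfx4 and Tbpl1 were closer to 0. Rfx4 (chr10:84756036-84906538), known from the developing brain, had 77.3, 78.7 and 73.8 CPM with the control diet and 73.5, 73.0 and 66.8 with ethanol. The highest ethanol value was just under the lowest control value, and the log2 fold change was -0.11 (SE 0.07, adjusted p = 0.511 by edgeR's quasi-likelihood test). On the TPM scale Rfx4 overlapped between diets, at 41.8 ± 3.73 and 40.9 ± 4.07.

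Among the regulators of spermatid genes Klf4 (Gene ID 16600, chr4:55527137-55532475) showed the widest gap. It had 88.8, 94.7 and 96.1 CPM in control-diet libraries and 80.5, 76.1 and 77.2 in the ethanol libraries. The diets did not overlap in CPM, with means of 93.2 ± 3.85 and 77.9 ± 2.25. The log2 fold change was -0.26 (SE 0.06). Its adjusted p was 0.153 in edgeR's quasi-likelihood test and 0.0104 in DESeq2. Klf4 had 54.3, 62.2 and 56.5 TPM with the control diet and 54.6, 49.1 and 46.9 with ethanol, where ethanol library 1 lay just inside the control range. Sertoli cells are a known source of Klf4, and the summed CPM of 12 Sertoli cell markers was 889 to 937 in the control libraries and 1019 to 1169 in the ethanol libraries. Clu made up most of that sum, with means of 585.7 CPM with the control diet and 682.4 with ethanol. Postmeiotic germ cells are the other source named above. Round spermatid markers summed to 983 to 1154 CPM with the control diet and 948 to 969 with ethanol. Elongating spermatid markers summed to 13157 to 15560 and 13063 to 16088 CPM. The part of these differences in the Klf4 values was not tested.

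Crem (chr18:3266354-3337773) had 217.0, 207.3 and 224.0 CPM with the control diet and 202.8, 211.4 and 204.9 with ethanol. The diets overlapped, and the log2 fold change was -0.07 (SE 0.06, adjusted p = 0.669 by edgeR's quasi-likelihood test). Tbpl1 (chr10:22703877-22732666) had 339.9, 325.4 and 324.6 CPM in control-diet libraries and 299.8, 311.2 and 309.9 in the ethanol libraries. Its diets did not overlap in CPM but differed little, by -0.10 in log2 (SE 0.05, adjusted p = 0.441 by edgeR's quasi-likelihood test), and overlapped in TPM at 178.8 ± 11.2 and 173.4 ± 6.35. The Tbpl1 locus overlaps Slc2a12 and Mir7663. Loci of Rfx2, Rfx3, Rfx4 and Crem overlap Gm41604, Gm17894, Gm40728 and Gm6225, in that order.

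Sox30 (chr11:45979069-46017992) had the widest relative spread of the 10 over the control libraries, at 32.6, 42.8 and 41.3 CPM, and had 34.8, 34.8 and 35.1 CPM with ethanol. Control library 1 was the lowest of the 6 libraries, and the log2 fold change was -0.16 (SE 0.10). It was -0.28 without control library 1 and -0.08 without control library 2. Taf7l (chrX:134460116-134476505) was the single member with a value above 0. It had 42.8, 39.1 and 41.7 CPM with the control diet and 41.6, 41.6 and 43.9 with ethanol, which overlapped, and a log2 difference of 0.04 (SE 0.07). In TPM it stood at 42.3, 41.4 and 39.7 with the control diet and 46.1, 43.8 and 43.1 with ethanol, without overlap.

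**Figure D3:**
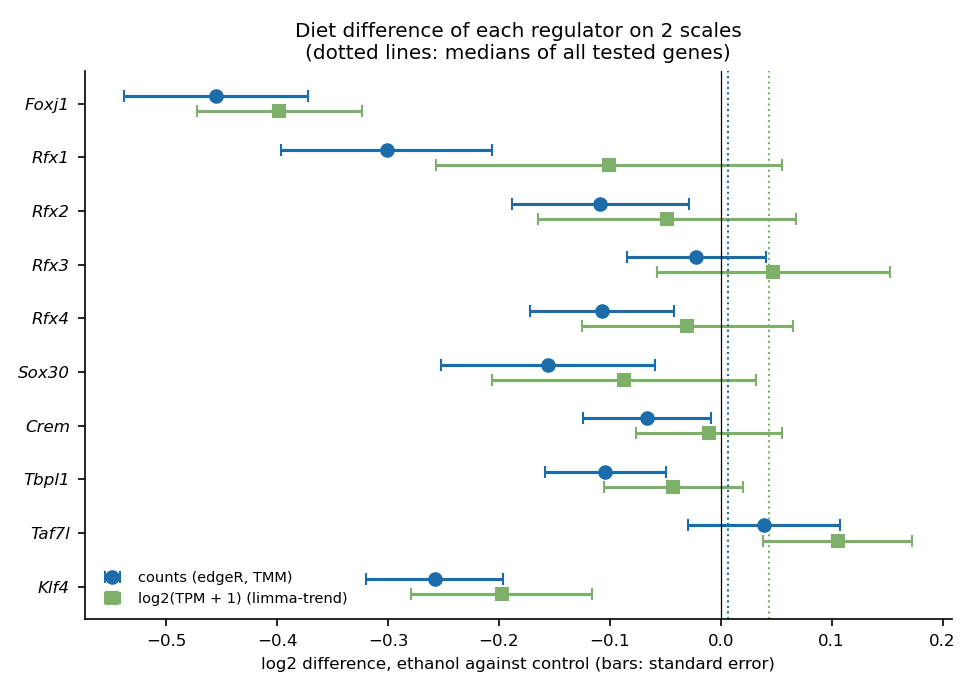
Difference between diets for each regulator on 2 scales, the edgeR log2 fold change of counts and the difference in log2(TPM + 1), with standard errors as bars. Foxj1 is at -0.46 and -0.40, Rfx1 at -0.30 and -0.10, and most others lie within 0.2 of 0.

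The scale of the values matters for this group. The median of all tested genes was 0.0065 on the count scale and 0.044 in log2(TPM + 1). Non-overlap with ethanol lower was seen on CPM in 5 members (Foxj1, Rfx1, Rfx4, Tbpl1 and Klf4) and in 9.01% of all genes. On TPM it was seen in 1 member, Foxj1, and in 4.41% of all genes. Taf7l was higher with ethanol without overlap on TPM, and the share of all genes so placed was not counted.

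Profiles most like those of 3 members were taken as the smallest root mean square difference of centred log2 CPM over the 6 libraries, among 10998 candidate genes. Nearest to Foxj1 were Adat3 at 0.060, C1qtnf4 at 0.063 and B3gnt4 at 0.068. Nearest to Rfx2 were Usp21 at 0.018, Ccdc88c at 0.022 and Edc4 at 0.023. Nearest to Crem were Ccdc158 at 0.0093, Sltm at 0.010 and Sccpdh at 0.010. Centred log2 CPM ran from -0.36 to 0.35 in Foxj1, from -0.11 to 0.22 in Rfx2 and from -0.058 to 0.085 in Crem. The distance is not scaled to this range, so the 3 members are not ranked by it.

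Genes of the classes that these factors act on, or act with, were read from the same fit. In every list 0 genes passed the adjusted p of 0.05. Of 42 motile cilia and axoneme genes, 37 had a log2 fold change below 0 and 5 above, with a median of -0.12, where 48.5% of all genes were below 0 and their median was 0.0065. At an unadjusted p under 0.05, 13 were lower and 0 higher, beside 5.89% and 7.45% of all genes. Ccdc65, a subunit of the nexin-dynein regulatory complex, had 232.4 ± 8.10 CPM with the control diet and 198.1 ± 9.15 with ethanol, which gave a log2 ratio of -0.23 (SE 0.06, adjusted p = 0.166 by edgeR's quasi-likelihood test). Zmynd10, a factor that assembles dynein arms, had means of 242.1 with the control diet and 208.5 CPM with ethanol, or -0.22 (SE 0.06) in log2. The radial spoke gene Lrrc23 and the sperm tail gene Enkur were at -0.24 (SE 0.07) and -0.23 (SE 0.06).

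Of 20 intraflagellar transport genes, which carry cargo along the growing axoneme, 18 were below 0 and 2 above, with a median of -0.095, beside 48.5% of all genes below 0. At an unadjusted p under 0.05, 6 were lower, beside 5.89% of all genes. The 4 of smallest p were Dync2li1, a light chain of the transport dynein, at -0.29 (SE 0.09), Ift27 at -0.27 (SE 0.08), Ift172 at -0.16 (SE 0.06) and Ift81 at -0.16 (SE 0.06). Ift172 had mean values of 517.7 CPM with the control diet and 462.0 with ethanol. On log2(TPM + 1) the medians of the axoneme and transport lists were -0.066 and -0.054, beside 0.044 over all genes.

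Genes listed for haploid spermatids, a class that CREM and its partners act on, were spread around 0. Whether each listed gene is a target of CREM was not tested. Of 18 genes, 8 were above and 10 below 0, with a median of -0.014. At an unadjusted p under 0.05, 0 were lower and 0 higher, beside 5.89% and 7.45% of all genes. The protamine gene Prm1 was at -0.05 (SE 0.07), the transition protein gene Tnp1 at 0.11 (SE 0.09), the outer dense fibre gene Odf1 at -0.09 (SE 0.07) and the acrosin gene Acr at -0.13 (SE 0.08). Akap4, a fibrous sheath gene, was at 0.06 (SE 0.05), with every ethanol library above every control library in CPM.

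**Figure D4:**
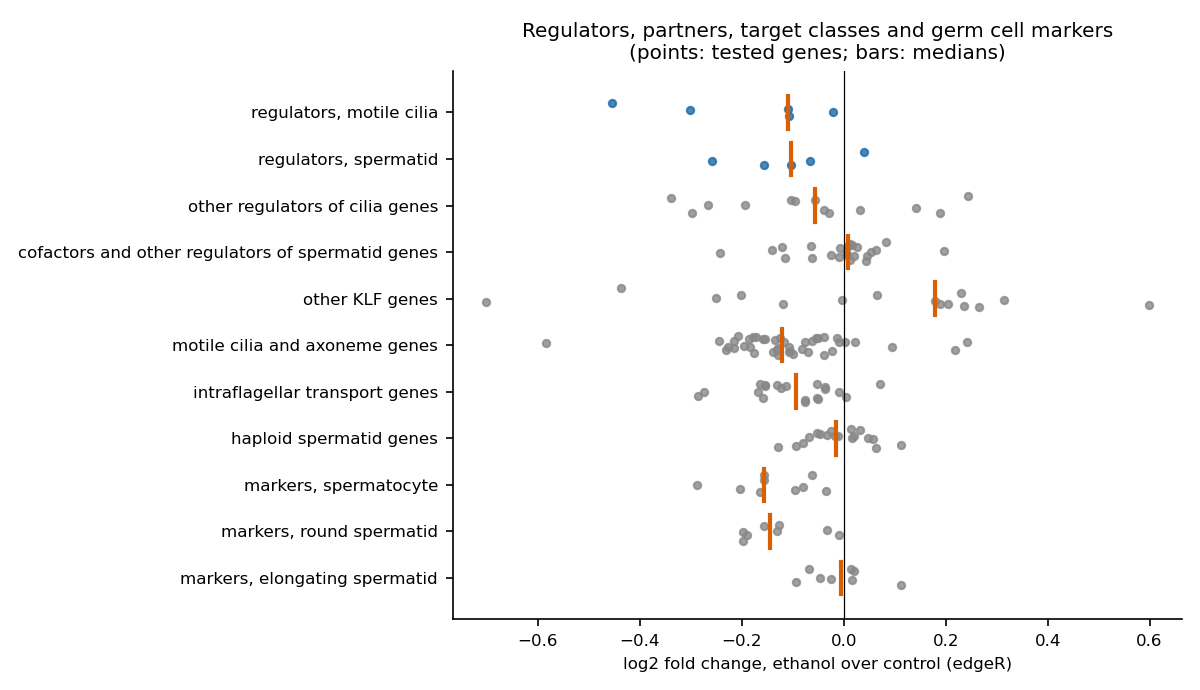
Log2 fold change, ethanol over control, of each gene (points) in the lists of regulators, partners, target classes and germ cell markers, with the list median as a bar. The axoneme and transport lists have medians of -0.12 and -0.095, the haploid spermatid list -0.014, and single genes of low count lie far from their list.

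Cofactors and other regulators of spermatid genes were also mixed, with 14 of 23 above 0 and 9 below and a median of 0.009, which was -0.013 without control library 3 and -0.021 without ethanol library 2. Kif17, a kinesin that in mouse moves the CREM coactivator out of the nucleus, had 321.4 ± 25.6 CPM with the control diet and 271.5 ± 22.7 with ethanol, which gave a log2 ratio of -0.24 (SE 0.08, adjusted p = 0.223 by edgeR's quasi-likelihood test). Fhl5, that coactivator, was at 0.03 (SE 0.10). Taf1, the largest TFIID subunit, was at mean values of 25.9 CPM with the control diet and 29.7 with ethanol, or 0.20 (SE 0.08) in log2. Kctd19 and Tcfl5, both needed for male meiosis in mouse, were both at -0.12, with an SE of 0.05 for Kctd19 and 0.06 for Tcfl5. The general forms lay near 0, with Tbp at 0.02 (SE 0.07), Taf7 at -0.06 (SE 0.08), Creb1 at 0.06 (SE 0.08) and Gtf2a1 at 0.01 (SE 0.07). The germ cell form Gtf2a1l was also near 0, at -0.06 (SE 0.06).

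Of 16 other regulators of cilia genes 13 were tested, with 4 above and 9 below 0 and a median of -0.057, which was 0.005 on log2(TPM + 1). None had an unadjusted p under 0.05, beside 5.89% of all genes lower and 7.45% higher. The 4 of smallest p were Rfx6 at -0.34 (SE 0.17), Rfx7 at 0.19 (SE 0.12), Foxj2 at 0.24 (SE 0.16) and Foxj3 at 0.14 (SE 0.09). Of 16 other KLF genes 15 were tested, with 9 above and 6 below 0 and a median of 0.18. That median rests on single libraries, since it was 0.080 without control library 1, 0.032 without control library 3, 0.043 without ethanol library 1 and 0.022 without ethanol library 2. Klf3 went from 3.34 ± 0.43 to 5.05 ± 0.24 mean CPM, which is 0.60 in log2 (SE 0.14, adjusted p = 0.153 by edgeR's quasi-likelihood test). Klf5 was at -0.44 (SE 0.16), Klf15 at 0.32 (SE 0.12) and Klf10 at 0.23 (SE 0.10).

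Markers of cell types that use these regulators were read beside them. Of 7 markers of multiciliated epithelium, Mcidas, the gene that starts the multiciliated program, had 0 counts in all 6 libraries, and Trp73 had 0 to 9 counts. The summed CPM of the list was 402 to 477 with the control diet and 391 to 397 with ethanol. Deup1, a gene of centriole multiplication, made up most of it, with 435.4 ± 38.0 and 389.8 ± 3.37 CPM. All 5 tested genes of the list had a log2 fold change below 0, with a median of -0.19, beside 48.5% of all genes below 0. Markers of efferent duct and rete epithelium, which carry FOXJ1-dependent cilia, summed to 75.3 to 103.4 CPM with the control diet and 79.7 to 93.6 with ethanol, so the ethanol range lay inside the control range. Aqp9 alone had 70.3 ± 12.8 and 68.8 ± 7.81 CPM, while Pax2, Aqp1 and Krt18 had control means of 0.41, 1.14 and 0.23 CPM. Esr1 had 9.54 ± 1.67 CPM with the control diet and 8.56 ± 1.14 with ethanol, and Krt8 had 9.34 ± 0.87 and 8.02 ± 1.04. Of the 6 efferent duct and rete markers tested, 5 were below 0 and 1 above, with a median of -0.096. The 7 epididymis markers summed to 4.67 to 5.50 CPM with the control diet and 4.85 to 5.82 with ethanol. Rnase10, the single one with enough reads to be tested, gave most of that, with 4.73 ± 0.50 and 5.04 ± 0.31 CPM. Lcn5 had 0 counts in every library, and Crisp1 had 6, 10 and 10 counts in control libraries 1 to 3 and 0, 0 and 5 in ethanol libraries 1 to 3.

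Germ cell and somatic markers were read beside the axoneme genes. All 9 spermatocyte markers were below 0, with a median of -0.16 and sums of 2096 to 2155 CPM with the control diet and 1809 to 1965 with ethanol. All 8 round spermatid markers were below 0, with a median of -0.14 and sums of 983 to 1154 and 948 to 969 CPM. Elongating spermatid markers were split evenly, 4 above and 4 below 0, with a median of -0.005. All of these are also in the haploid spermatid list above, so they are not a separate reading. Spermatogonium markers went mostly the other way, with 7 of 9 above 0 and a median of 0.13, and overlapped in their sums at 110.7 to 122.8 and 112.1 to 124.6 CPM. The largest log2 fold change of that list was that of Id4, -0.41 (SE 0.09). Id4 was lower without overlap, with means of 32.2 ± 1.08 CPM with the control diet and 24.1 ± 2.77 with ethanol.

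Of the somatic markers, 10 of 12 Sertoli cell genes were above 0, with a median of 0.22. Macrophage markers were above 0 in 5 of 5 genes and summed to 75.6 to 81.8 CPM with the control diet and 89.6 to 96.7 with ethanol. Peritubular myoid cell markers were also above 0 in 5 of 5, with sums of 95.7 to 99.9 and 100.3 to 107.7 CPM. Endothelium markers were above 0 in 4 of 5, with overlapping sums of 37.6 to 42.7 and 39.6 to 49.0 CPM. Leydig cell markers were split, 3 above and 4 below 0, with sums of 632 to 663 and 542 to 685 CPM. Among them Cyp11a1, the enzyme that starts steroid synthesis, had 64.8, 67.9 and 41.5 CPM in control libraries 1 to 3 and 21.9, 33.1 and 15.5 in ethanol libraries 1 to 3. Hsd3b6 went the other way without overlap, with means of 44.7 ± 3.27 CPM with the control diet and 65.5 ± 15.2 with ethanol. The other Leydig cell markers overlapped between the diets. Adipocyte markers were above 0 in 5 of 5 genes, and summed to 10.5 to 18.2 CPM with the control diet and 16.4 to 38.2 with ethanol. Each of them overlapped between the diets. Fabp4 had 10.0, 2.04 and 1.46 CPM and Cfd 12.3, 3.36 and 0.61 in ethanol libraries 1 to 3, so ethanol library 1 stood apart. Adipoq had 11.6 ± 2.17 CPM with the control diet and 12.2 ± 1.34 with ethanol. The part of these germ cell and somatic differences in the values of Foxj1, Rfx1, Klf4 and the cilia lists was not tested.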

How the data were processed

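The data were read counts, FPKM and TPM per gene of 6 mouse testis libraries, 3 per diet, in 1 table of 45777 genes. Per the labels' protocols, a stranded total RNA kit was used after ribosomal RNA removal. Per the submitters' processing notes, reads were aligned with HISAT2 to mm10. How reads were assigned to genes, and whether strand was used, is not given in the sources at hand, so overlapping genes are uncertain. The authors deposited whole-number counts without normalization, and FPKM and TPM that they had computed, per the file headers. Total counts were 38935654 to 47420249 per library, and no pair of libraries was a duplicate: the lowest chi-square per gene over the 15 pairs was 7.23.

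Counts were tested with edgeR 4.0.16 in R 4.3.3 by the quasi-likelihood F-test on the diet, with filterByExpr, TMM scaling and Benjamini-Hochberg adjustment over 25073 genes. The biological coefficient of variation was 0.102. P-values measure the spread between these libraries. Standard errors were derived from F statistics. TPM was compared as log2(TPM + 1) with limma 3.58.1, whose fold changes understate low genes. Implied length came from deposited counts and FPKM. Promoters came from RefSeq, and overlaps and coordinates (1-based, mm10) from the NCBI gene table.

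The members, the gene lists and the tests were chosen with earlier results of these data known. Text names all 10 members, up to 4 genes of smallest p from each list that is not of markers, and the partner genes. It also names the 3 nearest profiles, taken from genes averaging 5 CPM or more. Foxk2, Klf17, Rfx8 and Sox5 were named after their values were seen. So were the markers given by name (Deup1, Mcidas, Trp73, Aqp9, Pax2, Aqp1, Krt18, Esr1, Krt8, Rnase10, Lcn5, Crisp1, Clu, Cyp11a1, Hsd3b6, Id4, Fabp4, Cfd and Adipoq). Alternatives were DESeq2 1.42.0, limma-voom, other scalings, filters and pseudocounts, a threshold of 0.1, the replicate number as a block, a promoter window of 150 bases, and each library left out. The procedure was tested on simulated data. Marker sums cover every gene of a list. No library was left out of the main fit.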

Additional observations from a re-analysis of the deposited data

How the results depend on the processing

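Over the 16 alternative settings of the fold changes every member kept its sign except Rfx3, whose log2 difference was 0.0035 with total counts alone, and 0.047 and 0.052 on log2(TPM + 1) and log2(TPM + 0.1). Foxj1 ranged from -0.53 to -0.39, Klf4 from -0.30 to -0.20 and Rfx1 from -0.37 to -0.10. DESeq2 called 2 members, Foxj1 and Klf4, and 191 genes higher and 166 lower. Limma-voom called 3 genes higher and 2 lower, upper-quartile scaling 2 higher, a filter of 1 CPM in 3 libraries 2 higher, and a threshold of 0.1 gave 4 higher and 1 lower. With each library left out in turn, 0 to 1 genes were higher and 0 to 2 lower. The replicate block gave 5 genes higher and 10 lower and called 1 member, Foxj1, at an adjusted p of 0.0341 by edgeR's quasi-likelihood test. Deviations of same-numbered libraries were weakly correlated, at -0.058, 0.0029 and 0.127, and 2 of 6 libraries correlated best with their own number. The labels do not say whether the numbers pair the libraries, and these values cannot settle it. Members whose diets did not overlap, ethanol lower, were 5 on CPM (9.01% of all genes) and 1 on TPM (4.41%). With a library left out they were 5 to 7, where 12.5% to 15.8% of all genes were so placed. The last 2 settings were chosen after seeing the data. In the shorter window of 150 bases before the start the RFX half-site was in 2 members, beside 6.64% of all promoters. The CRE half-site was in 1 member there, beside 13.3% of all promoters. The cause of these shifts was not tested. The main test called 0 genes, Foxj1 included, and the 10 members had standard errors of 0.05 to 0.10 in log2 at 1382 to 15903 counts per library.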
